A study of Mus musculus with 1012 samples.

Results

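The cells described here are all whole RAW-G9 cells profiled by scRNA-seq in the series, either LPS-treated or not treated (mock). They were chosen by their labels alone, as all scRNA-seq libraries of this line with either treatment. The study compared Live-seq, in which cytoplasm is drawn from a living cell, with conventional scRNA-seq of whole cells in several mouse cell types. RAW-G9 is a single clone of the mouse macrophage-like line RAW264.7 that carries mCherry driven by the Tnf promoter and a fusion of EGFP to Rela. Both treatment groups carry both transgenes. LPS-treated cells had received lipopolysaccharide, given as 40 ng/ul in the text of the series, as 100 ng/ml in the methods of the study and as 100 nM in its account of the setup. These doses differ, and mock cells received PBS. The time in LPS of the whole cells is not given in the sources used here. Cells were detached with trypsin, stained with DAPI, sorted as live single cells into plates and amplified by Smart-seq2. They came from 3 batches named scRNA, 8_8 and 9_1 in the labels, which held 88, 15 and 46 LPS-treated cells and 95, 16 and 46 mock cells, out of 1012 single-cell libraries of all kinds. Counts were summed per batch and treatment, which gave 3 sums a side. Wherever 3 values follow each other below, they stand in the order of batches scRNA, 8_8 and 9_1.

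LPS is a glycolipid of the outer membrane of Gram-negative bacteria. Macrophages bind it through CD14 and the TLR4-MD-2 receptor, from which the adaptor MyD88 leads to the kinases that free NF-kB from its inhibitors, while the adaptor TRIF leads to TBK1 and to type I interferon. The response is known for waves of chemokine and cytokine transcription, for feedback inhibitors that shut the pathway down again, and for a change in metabolism and proliferation.

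Mock cells held 41030 to 1348804 counts each (median 433219) and LPS-treated cells 176393 to 1418783 (median 446191). Genes detected had a median of 8106 in mock and 7806 in LPS-treated cells, and the mitochondrial share had medians of 9.08% and 7.82%. The sums of kept counts were 34325221, 4328817 and 25551788 in mock and 29500952, 4129386 and 29105847 in LPS-treated cells, so that batch 8_8 is the shallowest on both sides. Of 11 defining macrophage markers, 9 had at least 2 counts in 99.3% or more of the cells of each treatment. The exceptions were Itgam, which encodes CD11b and had 63 counts in all mock sums and 43 in all LPS-treated sums, and the F4/80 gene Adgre1, with at most 15.4 CPM in any sum. Mesenchymal markers summed to at most 5.63 CPM and lymphoid markers to at most 1.54 CPM in any sum, and none of them entered the test. In a sum of cells, more cells that express a gene and more RNA per expressing cell cannot be told apart, and shares of cells are therefore given for the genes on which the text turns.

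Some mock cells stood apart from their label. In batch scRNA, 4 of 95 mock cells held 1.34 to 1.55% of their counts in the chemokine list, above the median of the LPS-treated cells of that batch (1.18%). The highest of the other mock cells reached 0.417%. The same 4 cells had 8950 to 11800 CPM of Acod1, 1430 to 1920 CPM of Tnf and 1220 to 1650 CPM of the mCherry reporter. They were also deep, with 700956 to 1112454 kept counts against a median of 310748 in the mock cells of their batch. No LPS-treated cell fell at or below the mock median of its batch by the same measure. In batch 9_1, 1 LPS-treated cell had no Acod1 count and a chemokine share of 0.174%, under the highest mock share there (0.392%). All cells were kept as labelled. Values without the 4 mock cells are given beside the results they move most, a choice made after the data had been seen. For Il1b, which encodes the cytokine interleukin-1 beta, these 4 cells held almost all mock counts. The mock sum of batch scRNA was 281.1 CPM with them and 0.163 CPM without them. The chemokine genes Cxcl2 and Ccl22 went from 105.1 to 0.327 CPM and from 105.5 to 0 CPM in the same sum. How these cells came to carry such counts was not tested.

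**Figure D1:**
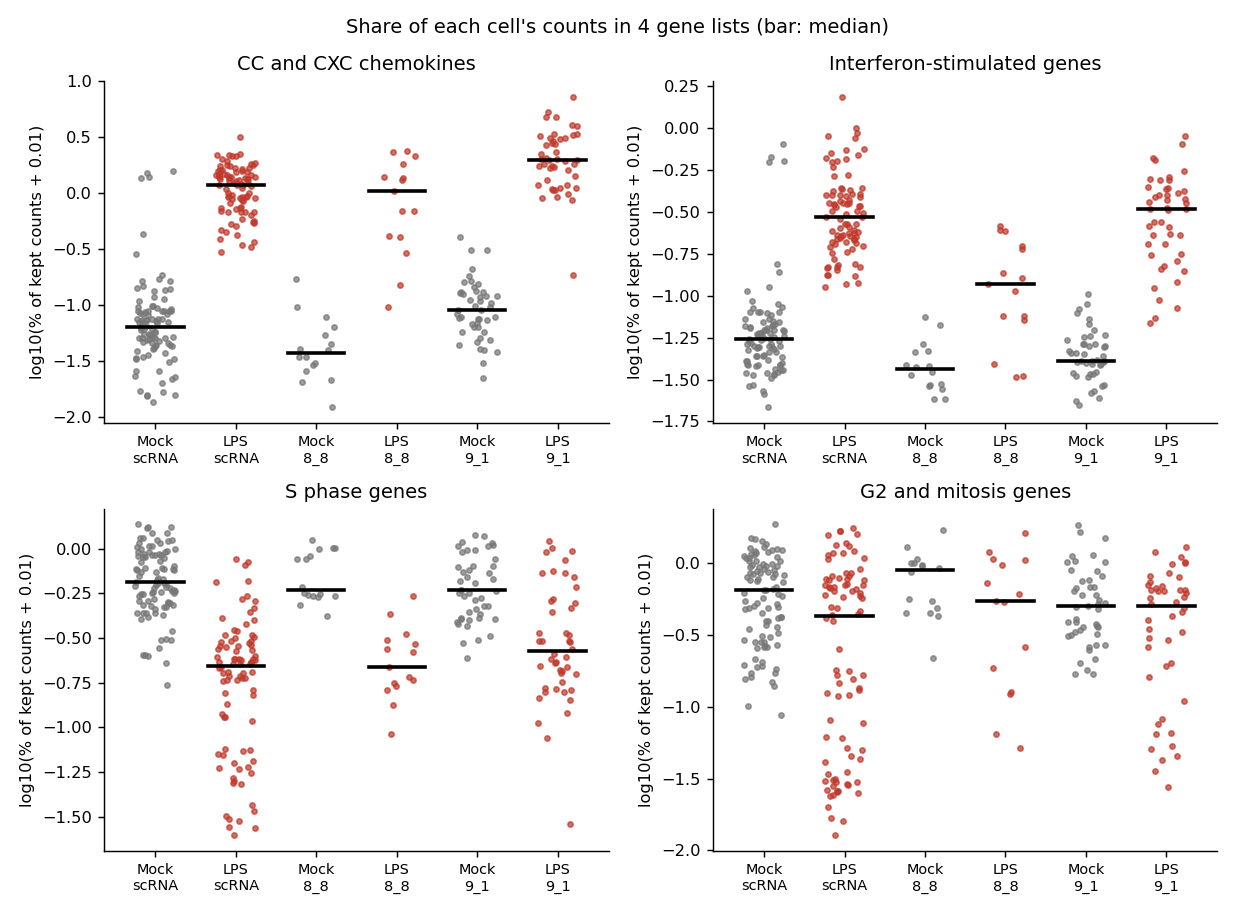
Share of each cell's kept counts in 4 gene lists, as log10 of the percentage plus 0.01, for each treatment and batch. Points are single cells (grey mock, red LPS-treated) and bars are medians. The 4 mock cells of batch scRNA that sit among the LPS-treated cells are seen in both upper panels, and the long lower tails of LPS-treated cells in both lower panels.

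Levels are given as CPM, the kept counts of a gene scaled to a common library size. The edgeR quasi-likelihood test, blocked by batch, set LPS-treated against mock sums, and called genes were those that changed by more than 1 on the log2 scale with a Benjamini-Hochberg adjusted p under 0.05. Of 10370 genes tested, 5.64% were called, 3.32% higher and 2.32% lower in LPS-treated cells. The genes called higher took 3.64, 1.85 and 2.5% of the mock counts and 11.7, 8.38 and 10.2% of the LPS-treated counts. Those called lower took 2.99, 3.36 and 2.91% in mock and 0.931, 1.28 and 1.13% in LPS-treated sums. Without the 4 mock cells, 4.35% of the genes were called higher and 3% lower, among them 99.7% and 99.6% of the genes called with all cells. The shares depend on the sums used: they were 1.86% and 0.434% without batch scRNA, 5.51% and 4.91% without batch 8_8, and 0.733% and 0.174% without batch 9_1. No called gene changed sign in any of these.

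Of the 4 genes that mark the comparison, Acod1 encodes the enzyme that makes itaconate, a metabolite of activated macrophages. It lies at chr14:103046977-103056573 (plus strand, GRCm38). Acod1 had 1500, 115.7 and 429.7 CPM in mock and 5480, 4380 and 5690 CPM in LPS-treated sums. The LPS-treated sums lay above all mock sums, and without the 4 mock cells the mock sum of batch scRNA was 441.5 CPM. The log2 fold change was 3.75 ± 0.64 (s.e., adjusted p = 0.0256), and 4.32 (adjusted p = 0.00107) without the 4 mock cells. The call was lost without batch 9_1 and without the block. Acod1 was counted in 90.4% of mock and 99.3% of LPS-treated cells, so that nearly all cells held it on both sides.

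The other 3 genes were rare in mock cells. Stx11 (chr10:12938209-12964298, minus strand) encodes syntaxin 11, a SNARE protein of the secretory route in immune cells. It had 1.54, 0 and 0.313 CPM in mock and 46.6, 8.48 and 38.3 CPM in LPS-treated sums, a log2 fold change of 6.06 ± 0.66 (adjusted p = 0.00854). It was counted in 3.82% of mock and 66.4% of LPS-treated cells. Thinned to 50000 counts a cell, the shares were 1.28% and 51%. Nr4a3 (chr4:48045153-48086447, plus strand), an orphan nuclear receptor of the immediate early class, had 0.204, 0 and 0.0391 CPM in mock and 16.5, 2.18 and 9.45 CPM in LPS-treated sums (log2 fold change 6.96 ± 0.73, adjusted p = 0.00775). It was counted in 1.27% of mock and 57.7% of LPS-treated cells, and after thinning in 0.641% and 34.2%. For both genes the lowest LPS-treated sum, that of batch 8_8, was above every mock sum. For Nr4a3 that sum rests on 9 counts in 1 of 15 cells, and both calls were lost without batch 9_1. Irak3 (chr10:120141648-120202130, minus strand), which encodes IRAK-M, an inhibitory member of the IRAK family, stayed under the limit of 2 counts in 15% of cells and was not tested. It had 0, 0 and 0.157 CPM in mock (4 counts in all) and 3.83, 2.66 and 2.71 CPM in LPS-treated sums. It was counted in 2 mock and 15 LPS-treated cells, so that all 3 LPS-treated sums were higher while most LPS-treated cells had no count.

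**Figure D2:**
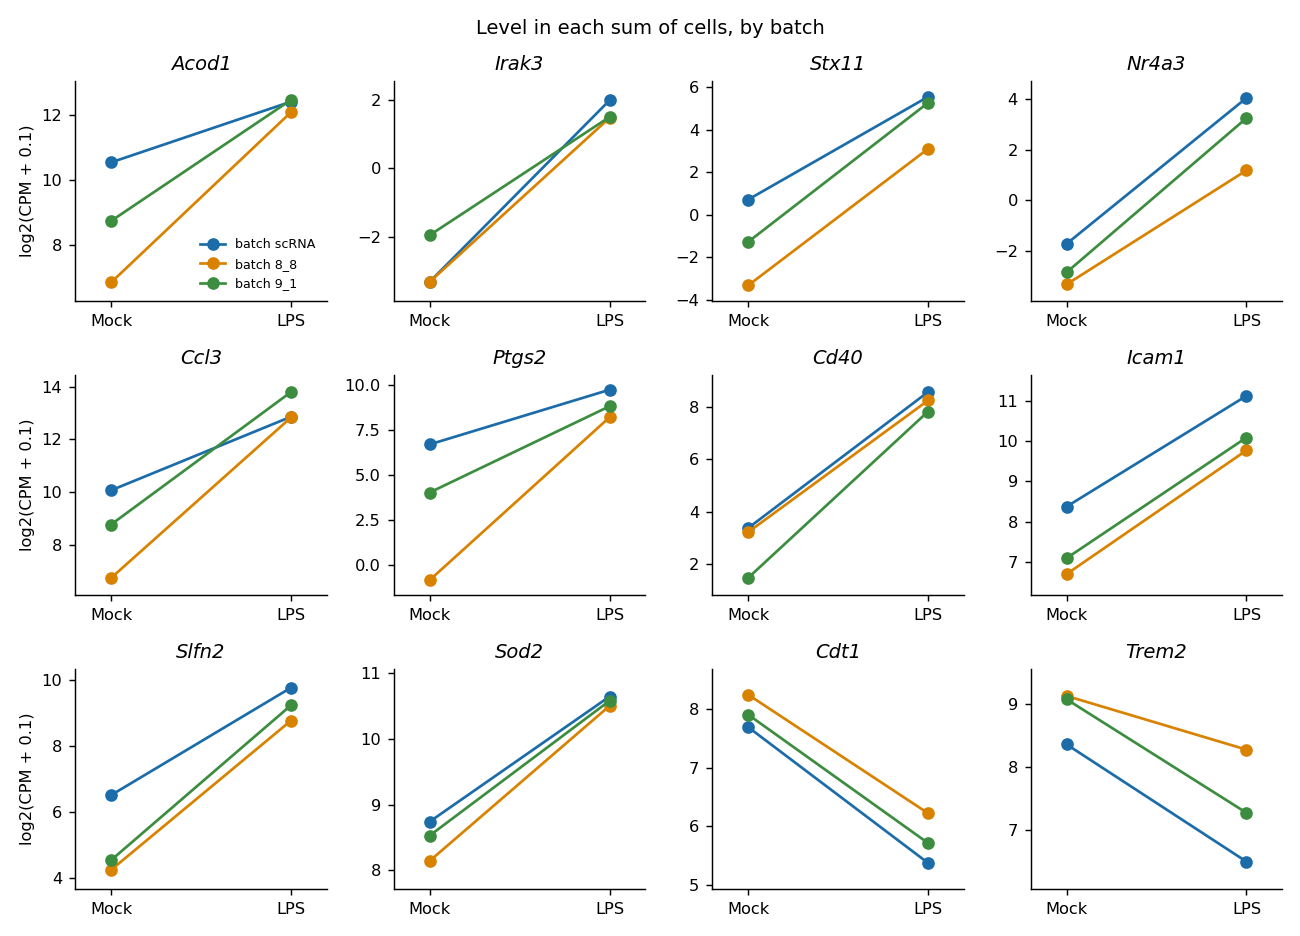
Level of 12 genes in each of the 6 sums, as log2(CPM + 0.1), with mock and LPS-treated sums of the same batch joined by a line. In every batch 10 of the genes are higher in the LPS-treated sum and Cdt1 and Trem2 are lower, and on this log2 scale the mock sums of Acod1, Ccl3 and Ptgs2 are farther apart than their LPS-treated sums.

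Within the sensing machinery, the co-receptor, 2 further receptors and 3 kinases rose. The gene lists used here and below were chosen with earlier results of these data known, so their counts and medians are description only. Every list count should be read beside the shares of all genes tested, 5.64% called, 3.32% higher and 2.32% lower. Of 24 tested genes for LPS sensing, 6 were called higher and none lower, with a median log2 fold change of 0.71 against -0.01 over all genes tested. Without batch 9_1 and without the block 3 were called. Cd14, the LPS co-receptor, had 1210, 447.7 and 1400 CPM in mock and 2370, 2300 and 3040 CPM in LPS-treated sums (log2 fold change 1.61 ± 0.28, adjusted p = 0.0274). Its groups did not overlap, but its mock sum of batch 8_8 was well below the other two. Ikbke, a kinase of the interferon branch, rose from a mean of 47.7 to 357.1 CPM (log2 fold change 3.10 ± 0.31, adjusted p = 0.00652). Ripk2, which carries signals from intracellular peptidoglycan sensors, rose by 2.55 ± 0.25 and the IRAK-family kinase gene Irak2 by 1.80 ± 0.22. Tlr2, the receptor for bacterial lipopeptides, rose by 1.51 ± 0.22, and its partner gene Tlr1 rose from 0.495, 0 and 0 to 19.6, 1.7 and 3.16 CPM. Myd88 (1.05 ± 0.28, adjusted p = 0.082) and Tbk1 (0.45 ± 0.23, adjusted p = 0.286) were not called. Without the 4 mock cells Myd88 passed the test (adjusted p = 0.0491).

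Of 11 tested genes for NF-kB subunits and inhibitors, 7 were called higher and none lower, 3 without the block, and the median log2 fold change was 1.75. Rel (0.46 ± 0.57, adjusted p = 0.667) was not called and went from 83.2 to 30 CPM in batch 8_8. Without that batch 9 genes of the list were called higher, and without batch 9_1 5 were. Rel (1.29, adjusted p = 0.0141) and Rela (1.32, adjusted p = 0.00208) were called by the edgeR test without batch 8_8. Nfkb2, whose product p100 is the precursor of p52, had 174.7, 44.6 and 62.8 CPM in mock and 717.03, 274.1 and 323.8 CPM in LPS-treated sums (log2 fold change 2.47 ± 0.16, adjusted p = 0.00287). The rise was seen within each batch and the groups did not overlap. Among the inhibitors, Nfkbiz (3.44 ± 0.39), which encodes a nuclear cofactor of the I-kappa-B family, and Nfkbie (2.83 ± 0.33) rose. Nfkbib (1.73 ± 0.18) rose as well, as did the subunit genes Relb (2.15 ± 0.24) and Nfkb1 (1.75 ± 0.20). Rela, with 180.2, 105.8 and 88.3 CPM in mock and 463.8, 113.8 and 167.9 CPM in LPS-treated sums, was not called with all batches (0.95 ± 0.25, adjusted p = 0.0757). Since the line carries a Rela fusion, Rela counts may include the transgene, and the EGFP feature itself was called higher (108.9, 64 and 110.99 CPM in mock and 376.9, 111.4 and 254.8 CPM in LPS-treated sums, log2 fold change 1.41 ± 0.22, adjusted p = 0.0197). The Tnf-driven mCherry rose from 192.7, 16.9 and 55.6 to 1230, 983.4 and 1840 CPM, a log2 fold change of 4.64 ± 0.64 (adjusted p = 0.0154). The endogenous Tnf rose by 3.50 ± 0.34.

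Of 25 tested genes that brake TLR signalling or destabilize mRNA, 7 were called higher and 1 lower. Called higher were 4 without batch scRNA, 2 without batch 9_1, 1 without the block and 9 without the 4 mock cells. Zc3h12a, whose product Regnase-1 cleaves cytokine mRNAs, had 12.1, 7.85 and 1.25 CPM in mock and 116.7, 36.3 and 16.9 CPM in LPS-treated sums (log2 fold change 3.23 ± 0.38, adjusted p = 0.01). The ubiquitin-editing enzyme gene Tnfaip3 (A20) rose by 3.15 ± 0.31 and its partner gene Tnip1 by 2.42 ± 0.17. Peli1, Socs3, Dusp16 and Tnip3 rose by 1.35 to 1.76. Sigirr, an inhibitory receptor of the interleukin-1 receptor family, went the other way and fell from 32.5, 17.3 and 34.8 to 7.59, 2.91 and 10.8 CPM, with no overlap (log2 fold change -1.94 ± 0.37, adjusted p = 0.0346). The calls of Zc3h12a and Sigirr were lost without batch scRNA and without batch 9_1, among other settings. Rc3h1 and Tollip, the most abundant brakes that were not called, had log2 fold changes of 0.31 ± 0.16 and 0.81 ± 0.18.

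Of 22 tested immediate early and AP-1 genes, which encode transcription factors, 6 were called higher and none lower, with a median log2 fold change of 0.60. There 1 was called higher without batch 9_1, 3 without the block and 9 without the 4 mock cells, while 9 were called higher and 3 lower without batch 8_8. Beside Nr4a3, these were Maff (4.02 ± 0.59), a small Maf factor, Egr2 (3.44 ± 0.54), Myc (3.38 ± 0.46), Cebpd (2.54 ± 0.20) and Junb (1.29 ± 0.15). Cebpd, which encodes C/EBP delta, had 39.3, 30.7 and 33.6 CPM in mock and 171.6, 215.04 and 166.7 CPM in LPS-treated sums, tight on both sides and far apart. Egr2 went from 9.58 to 109.9 CPM in batch scRNA and from 5.21 to 52.9 CPM in batch 9_1, while in batch 8_8 it went from 0.231 to 0 CPM. Fosb, Egr1, Egr3, Nr4a1, Nr4a2 and Klf2 were too low to be tested. Of these, Fosb, Egr3, Nr4a1 and Klf2 had only 3, 30, 38 and 38 counts in all LPS-treated sums. In all mock sums Egr3 had 67 counts and Fosb, Nr4a1 and Klf2 had more, so these untested genes went down. Egr1 had slightly fewer counts in LPS-treated than in mock sums, and Nr4a2 had more.

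Among the 29 lists, chemokines had the largest gain of summed CPM in every batch. The summed level of the 19 listed CC and CXC chemokines was 2120, 404.96 and 1050 CPM in mock and 11800, 10900 and 23100 CPM in LPS-treated sums. Without the 4 mock cells the mock sum of batch scRNA was 626.7 CPM, and its Ccl3 level 289.96 CPM. Of 9 tested, 6 were called higher and 1 lower, with a median log2 fold change of 4.38. Called higher were 1 without batch 9_1, 3 without the block and 8 without the 4 mock cells. Ccl3 (MIP-1 alpha) had 1070, 106.03 and 433.9 CPM in mock and 7450, 7310 and 14300 CPM in LPS-treated sums (log2 fold change 4.81 ± 0.67, adjusted p = 0.0155), the largest gain of CPM among all called genes. Its neighbour in the gene cluster, Ccl4, had 242.2, 18.9 and 281.6 CPM in mock and 994.3, 1080 and 5190 CPM in LPS-treated sums (4.11 ± 0.71, adjusted p = 0.0275). In both genes the LPS-treated sum of batch 9_1 stood above the others, and both calls were lost without that batch. Ccl9 kept its call in all 13 alternatives, with 445.04, 113.9 and 192.7 against 2430, 2010 and 2630 CPM (3.59 ± 0.34, adjusted p = 0.00611).

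Ccl5 (RANTES) rose by 4.65 ± 1.00 and the transmembrane chemokine gene Cxcl16 by 2.50 ± 0.27. Cxcl10, an interferon-induced ligand of CXCR3, had no count in any mock sum and 1.56, 0.727 and 20 CPM in LPS-treated sums, at least 214.9-fold higher against a floor of 3 counts over the mock sums, with the highest level in batch 9_1. Cxcl14 fell by 1.47 ± 0.28 on the log2 scale, from a mean of 118.5 to 44.3 CPM. Cxcl2 had 105.1, 0.231 and 0.0391 CPM in mock and 428.3, 253.1 and 612.2 CPM in LPS-treated sums and was not called (6.84 ± 2.08, adjusted p = 0.107), nor was Ccl22 (4.38 ± 1.44, adjusted p = 0.127). Both were called without the 4 mock cells of batch scRNA, at adjusted p of 0.000108 and 0.000466.

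Of 16 tested cytokines and growth factors, 7 were called higher and 1 lower (median log2 fold change 4.05), against 12 and 1 without the 4 mock cells. In this list 4 were called higher without batch 9_1 and 2 without the block, and none lower in either. Il27 and Ebi3, which encode both subunits of interleukin-27, rose. Il27 had 11, 0 and 0.0783 CPM in mock and 186.7, 83.8 and 208.9 CPM in LPS-treated sums (6.85 ± 1.30, adjusted p = 0.0347). Ebi3 had 20.2, 8.32 and 4.03 against 164.9, 88.9 and 124.8 CPM (3.93 ± 0.42, adjusted p = 0.00824). Neither gene's groups overlapped. Il15 rose by 5.23 ± 0.81 and Csf1, the macrophage growth factor, by 4.18 ± 0.42. Csf1 had 9.29, 0.462 and 1.02 CPM in mock and 106.2, 6.05 and 27.7 CPM in LPS-treated sums, so that its groups overlapped across batches but not within any. The lymphotoxin gene Ltb rose by 1.75 ± 0.25, and Igf1 fell by 1.22 ± 0.24 on the log2 scale. Il1b (4.64 ± 2.00, adjusted p = 0.218) was not called with all cells and was called without the 4 mock cells (adjusted p = 0.000108). Lta, the lymphotoxin alpha gene, rose by 5.98 ± 1.30 on the log2 scale. Il6, Il10 and Ifnb1 were counted too rarely to be tested, with 61, 20 and 6 counts in all LPS-treated sums and 3, 0 and 0 in all mock sums.

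Of 32 tested interferon-stimulated genes, 13 were called higher and none lower, 31 had a fold change above 0 and the median log2 fold change was 2.96. Their median was 1.48 in batch scRNA, 2.97 in batch 8_8 and 4.06 in batch 9_1. The 4 mock cells enter the first of these: the list's mock sum in batch scRNA was 1180 CPM with them and 490.5 CPM without them. Slfn2, a Schlafen family gene, had 90.9, 18.9 and 23.2 CPM in mock and 865.7, 434.4 and 598.8 CPM in LPS-treated sums (4.27 ± 0.32, adjusted p = 0.00371). Cmpk2, a mitochondrial nucleotide kinase gene, had 0.495, 0 and 1.06 against 28.4, 7.27 and 30.2 CPM (5.63 ± 0.62, adjusted p = 0.00855). Parp14 rose by 3.73 ± 0.50 and the ubiquitin-like modifier gene Isg15 by 4.63 ± 0.88. Ifih1 (3.38 ± 0.43) and Ddx58 (2.89 ± 0.59), which encode the RNA sensors MDA5 and RIG-I, rose too, and Irf1 and Irf9 rose by 2.22 ± 0.48 and 1.89 ± 0.25. Batch 8_8 was the lowest LPS-treated sum of the list (1220 CPM against 3780 and 3280). In the list 24 genes were called higher without the 4 mock cells, also 24 without batch 8_8, 18 without batch scRNA, 2 without batch 9_1 and 3 without the block. Oas1a and Oas3 were not called with all cells (adjusted p = 0.113 and 0.21) or without the 4 mock cells (adjusted p = 0.0552 and 0.0827). Without batch 8_8 the edgeR test called both higher (1.16, adjusted p = 0.00895, and 2.28, adjusted p = 0.0244).

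**Figure D3:**
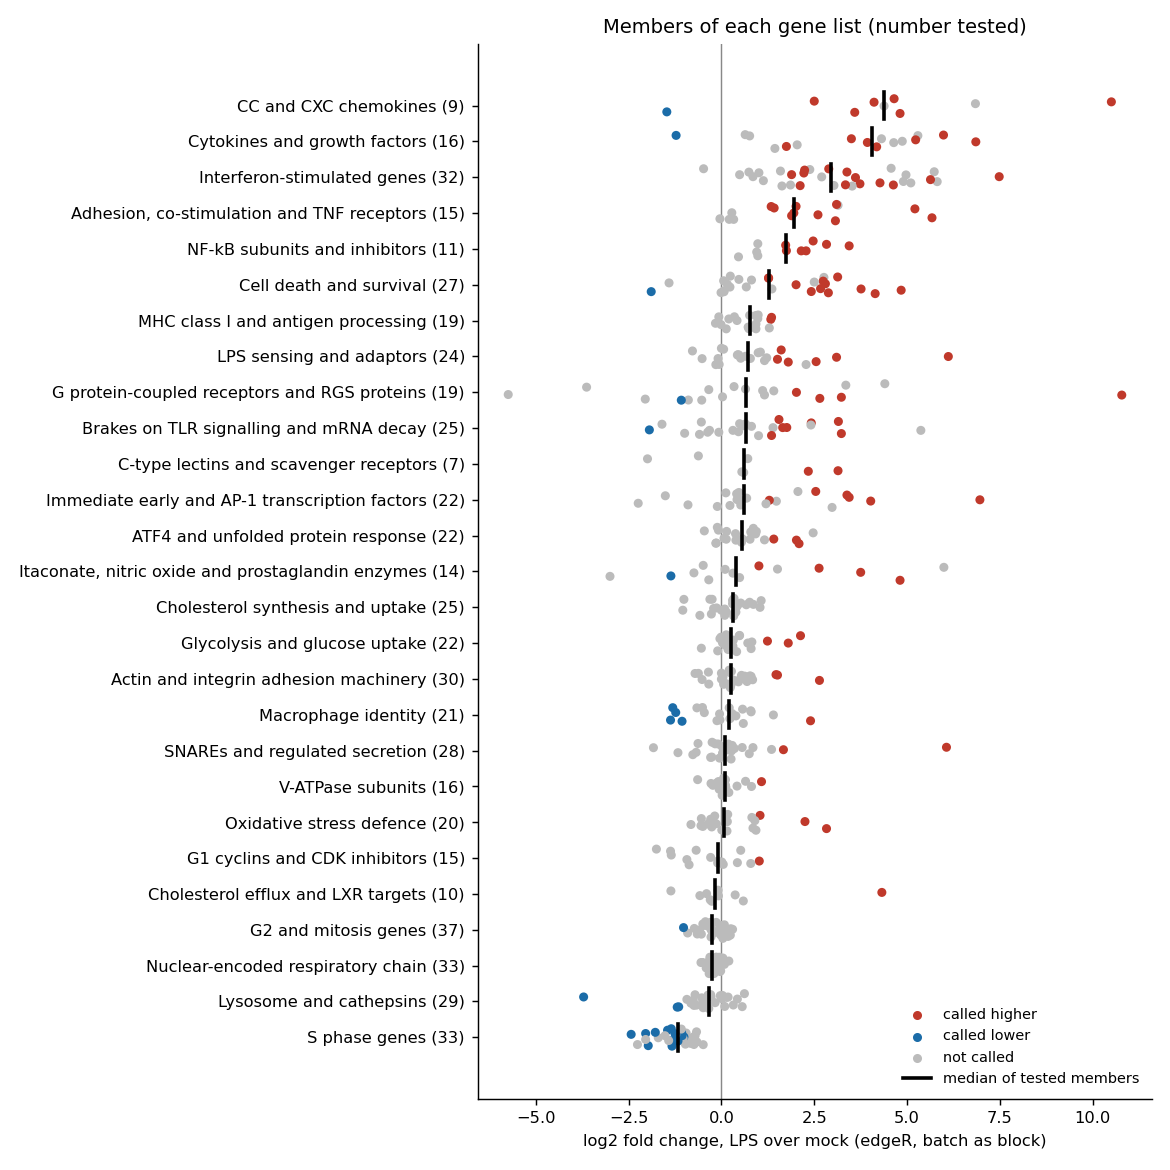
Log2 fold change of every tested member of 27 gene lists, sorted by the median (black bar), with the number tested in brackets. Red members were called higher, blue lower and grey not called. The chemokine, cytokine and interferon lists lie farthest to the right and the S phase list, with all 33 members below 0, farthest to the left.

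Of 14 tested genes for itaconate, nitric oxide and prostaglandins, 4 were called higher and 1 lower. None was called without batch 9_1 or without the block, while 5 were called higher and 3 lower without batch 8_8. Ptgs2, which encodes cyclooxygenase-2, had 103.4, 0.462 and 16.2 CPM in mock and 846.3, 293.3 and 448.4 CPM in LPS-treated sums (4.81 ± 0.80, adjusted p = 0.0241). The LPS-treated sums were above all mock sums, and without the 4 mock cells the mock sum of batch scRNA was 1.37 CPM. Gch1, whose product makes the cofactor of nitric oxide synthase, rose by 2.63 ± 0.52 and Nampt, which acts in NAD salvage, by 1.01 ± 0.16. The inducible synthase gene Nos2, singled out after its values were seen, had 8.13, 0 and 0 against 93.1, 11.4 and 53.5 CPM and missed the threshold (5.99 ± 1.34, adjusted p = 0.0515). Alox5ap, needed for leukotriene synthesis, fell by 1.36 ± 0.21 on the log2 scale.

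Of 20 tested genes of oxidative stress defence, 3 (15%, against 5.64% of all genes tested) were called higher and none lower (median 0.08). The median changed sign without batch 8_8 (-0.04). The mitochondrial superoxide dismutase gene Sod2 had a mean of 359.2 CPM in mock, with 282.1 and 368.5 CPM in batches 8_8 and 9_1, and 1600, 1450 and 1530 CPM in LPS-treated sums (2.25 ± 0.14, adjusted p = 0.00287). Slc7a11, the cystine importer gene, rose by 2.83 ± 0.27 and kept its call in all 13 alternatives, while Prdx5 (1.04 ± 0.15) lost its call without batch 8_8 (log2 fold change below 1). Prdx1 and Txn1 had log2 fold changes of 0.15 ± 0.12 and 0.17 ± 0.12 and were not called.

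Of 22 tested genes of glycolysis, the 3 called higher were the glucose transporter genes Slc2a6 and Slc2a1 and the lactate exporter gene Slc16a3, of which 1 was called without batch 9_1 and 1 without the block. These 3 genes are 13.6% of the list, against 5.64% of all genes tested. Slc2a6 had 300.2, 217.8 and 211.2 CPM in mock and 916.3, 1200 and 791.4 CPM in LPS-treated sums (2.13 ± 0.18, adjusted p = 0.00565), with a wide gap between the groups. Slc2a1 rose by 1.80 ± 0.34 and Slc16a3 by 1.24 ± 0.23. Ldha (0.23 ± 0.15) and Gapdh (0.10 ± 0.12) were not called, with overlapping groups. None of 33 tested nuclear-encoded respiratory chain genes was called, although 30 had a fold change at or below 0 (median -0.24). Of 25 tested genes for cholesterol synthesis and uptake none was called. Of 10 for cholesterol efflux 1 (10%) was called, Abca1 (4.32 ± 0.62, higher), while Abcg1 had a log2 fold change of -1.36 ± 0.31 (adjusted p = 0.0529). Abcg1 was called lower without the 4 mock cells (adjusted p = 0.0372) and without batch 8_8 (adjusted p = 0.00298), with 7 of 13 alternatives calling it in all.

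Of 15 tested genes for adhesion, co-stimulation and TNF receptors, 10 were called higher and none lower (median 1.95), against 3 without batch 9_1 and 3 without the block. Icam1, the ligand of leukocyte integrins, had 332.3, 104.2 and 136.9 CPM in mock and 2230, 874.5 and 1090 CPM in LPS-treated sums (3.07 ± 0.13, adjusted p = 0.00115). Within every batch the rise was close to the same size. Cd40, a co-stimulatory receptor, had 10.3, 9.24 and 2.7 against 375.4, 300.3 and 224.3 CPM (5.67 ± 0.32, adjusted p = 0.00287). Fas, the death receptor, rose by 5.21 ± 0.74, the proteoglycan gene Sdc4 by 3.10 ± 0.18, and Cd44, the hyaluronan receptor gene, by 2.01 ± 0.26. The integrin genes Itga4 (-0.04 ± 0.17) and Itgb2 (0.28 ± 0.26) were not called.

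Among pattern recognition lectins, Clec4e, which encodes Mincle, had 833.1, 194.05 and 387.1 CPM in mock and 4540, 2340 and 3050 CPM in LPS-treated sums (3.14 ± 0.23, adjusted p = 0.00368), while Clec4d (0.55 ± 0.13, adjusted p = 0.0635) was not called. The inhibitory Fc receptor gene Fcgr2b rose by 2.34 ± 0.29. Of 19 tested G protein-coupled receptors and RGS proteins, 4 were called higher and 1 lower. Called higher were 2 without batch scRNA, 2 without batch 9_1, 1 without the block and 7 without the 4 mock cells, and 5 were called lower without batch 8_8. Gpr84, a receptor for medium-chain fatty acids, had 450.8, 290.6 and 330.97 against 1250, 1300 and 1340 CPM (2.02 ± 0.17, adjusted p = 0.00512). The niacin receptor gene Hcar2 rose by 3.23 ± 0.63 and the complement receptor gene C5ar1 by 2.65 ± 0.40. Adora2a, an adenosine receptor gene, had no count in mock sums and 15.6, 0.242 and 4.64 CPM in LPS-treated sums, at least 203.7-fold higher. Rgs10 fell by 1.08 ± 0.16 on the log2 scale, and Cx3cr1 (-0.89 ± 0.28, adjusted p = 0.11) was not called.

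Of 27 tested genes of cell death and survival, 12 were called higher and 1 lower (median 1.27). Only 6 were called higher without batch 9_1 and 4 without the block. The BCL2A1 paralogues Bcl2a1a (4.84 ± 0.78), Bcl2a1d (3.13 ± 0.25) and Bcl2a1b (2.67 ± 0.19) rose, but they are nearly identical in sequence. Only uniquely mapped reads were counted, so reads that fit several of them are missing from these levels. Bcl2l1 (2.42 ± 0.28) and Mcl1 (1.27 ± 0.12), which encode anti-apoptotic proteins, and the inhibitor gene Birc3 (2.74 ± 0.28) rose as well, as did Traf1 (4.14 ± 0.47), Cflar (2.01 ± 0.21) and Gadd45b (2.88 ± 0.44). Casp4, whose product mouse caspase-11 binds intracellular LPS, had 8.01, 1.16 and 6.85 CPM in mock and 74.9, 34.1 and 69.7 CPM in LPS-treated sums (3.76 ± 0.39, adjusted p = 0.00747). The inflammasome sensor gene Nlrp3 rose by 2.80 ± 0.18 and the pro-apoptotic gene Bcl2l11 by 1.27 ± 0.25. Bcl2 fell by 1.89 ± 0.31 on the log2 scale, and Bax (-0.01 ± 0.12) and Bid (0.67 ± 0.13) were not called.

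Of 28 tested genes of SNAREs and regulated secretion, 2 (7.14%, against 5.64% of all genes tested) were called higher and none lower (median 0.09). These were Stx11 and the Golgi syntaxin gene Stx6, which rose from 60.1, 54.1 and 58.8 to 236.9, 137.6 and 139.1 CPM (1.67 ± 0.20, adjusted p = 0.0114). Adam17, the gene of the sheddase that releases TNF, had a log2 fold change of 0.85 ± 0.11, and Stx7 one of -0.77 ± 0.16, both within the fold limit. Of 30 tested actin and adhesion machinery genes, 3 (10%, against 5.64% of all genes tested) were called higher. Among them Marcksl1 had 287.2, 134.4 and 86.8 CPM in mock and 1500, 721.9 and 561.2 CPM in LPS-treated sums (2.64 ± 0.13, adjusted p = 0.00189). For MHC class I and antigen processing, 2 of 19 tested (10.5%) were called higher, Psme2 (1.35 ± 0.15) and H2-Q6 (1.33 ± 0.18), although 16 had a fold change above 0. In this list 6 were called higher without batch 8_8 and none without batch 9_1. H2-Q6 belongs to a family of similar genes, and reads that fit its relatives equally well were not counted. In the ATF4 and unfolded protein list, 3 of 22 tested (13.6%) were called higher, led by Ppp1r15a (GADD34) at 45.9, 31.6 and 25.8 against 159.6, 108.7 and 124.4 CPM (2.09 ± 0.20, adjusted p = 0.00611). There 8 were called higher without batch 8_8, 1 without batch 9_1 and 1 without the block. The chaperone genes Hspa5 (0.38 ± 0.11) and Hsp90b1 (0.14 ± 0.11) were not called.

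Of 21 tested macrophage identity genes, 1 was called higher and 4 lower. The median log2 fold change was 0.21, and 11 members had a fold change above 0. Without batch scRNA 1 was called lower, and without batch 9_1 or the block none. Spp1 (osteopontin) had 770.9, 233.6 and 1200 CPM in mock and 3670, 2240 and 2920 CPM in LPS-treated sums (2.40 ± 0.36, adjusted p = 0.0197). Trem2, a lipid-sensing receptor gene, had 327.9, 557.7 and 537.5 against 90.7, 309.5 and 154.9 CPM (-1.37 ± 0.22, adjusted p = 0.0227). Gpnmb (-1.23 ± 0.21), the lysosomal membrane protein gene Laptm5 (-1.06 ± 0.12) and the transcription factor gene Runx1 (-1.31 ± 0.26) fell too. Csf1r, the receptor for Csf1, had 2140, 1450 and 1270 against 1130, 977.4 and 677.1 CPM, without overlap, but its change stayed within the fold limit (-0.66 ± 0.13, adjusted p = 0.0349). Lyz2 (-0.04 ± 0.30) was not called. Of 29 tested lysosomal genes, 3 were called lower and none higher (median -0.34), against 1 without batch scRNA and none without batch 9_1 or the block. The 3 called genes are 10.3% of the list, against 5.64% of all genes tested. These were Tfeb, the gene of a master regulator of lysosome biogenesis, which fell from a mean of 11.9 to 0.889 CPM (-3.71 ± 0.76, adjusted p = 0.0408), the protease gene Lgmn (-1.19 ± 0.14) and Gla (-1.15 ± 0.24). The cathepsin genes Ctsb (0.01 ± 0.16) and Ctsz (0.43 ± 0.14) were not called. Of 16 tested V-ATPase genes, 1 (6.25%, against 5.64% of all genes tested) was called, Atp6v1e1 (1.08 ± 0.16, higher).

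Of 33 tested S phase genes, 14 were called lower and none higher, all 33 had a fold change below 0 and the median was -1.17. Called lower were 3 without batch scRNA, 5 without batch 9_1, 3 without the block and 17 without batch 8_8. In 27 of the 33 all LPS-treated sums lay below all mock sums, which 14.3% of all tested genes did, while 7.24% lay wholly above. The summed level was 6610, 7090 and 6300 CPM in mock and 2310, 2490 and 3790 CPM in LPS-treated sums. Cdt1, a licensing factor of replication origins, had 206.7, 303.3 and 239.6 CPM in mock and 41.4, 74.6 and 52.4 CPM in LPS-treated sums (-2.04 ± 0.15, adjusted p = 0.00368). The thymidine kinase gene Tk1 had 171.2, 281.8 and 218.2 against 38.5, 71 and 71.7 CPM (-1.78 ± 0.17, adjusted p = 0.00613). In both genes the highest LPS-treated sum was less than any mock sum by a wide margin. Ung (-2.43 ± 0.31), which removes uracil from DNA, and Cdc6 (-1.97 ± 0.37) fell, as did the helicase subunit genes Mcm2, Mcm5, Mcm6 and Mcm7 (-1.07 to -1.33) and the sliding clamp gene Pcna (-1.25 ± 0.20). Mcm3 (-0.66 ± 0.16) and Rrm1 (-0.77 ± 0.17) were not called.

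Of 37 tested G2 and mitosis genes, only Cdc25b was called (-1.02 ± 0.21, lower), and the median was -0.24. This is 2.7% of the list, against 5.64% of all genes tested. Top2a, with 798.9, 876.2 and 434.8 CPM in mock and 532.6, 847.8 and 450.3 CPM in LPS-treated sums, overlapped (-0.05 ± 0.15). Mki67, the proliferation marker, had 377.9, 1100 and 326.8 against 220.5, 562.6 and 238.7 CPM (-0.59 ± 0.14, adjusted p = 0.0582). The medians over cells of the list's share of counts were 0.638, 0.886 and 0.49% in mock and 0.414, 0.537 and 0.491% in LPS-treated cells. At the low end, 31.5% of LPS-treated cells (30 of 88, 5 of 15 and 12 of 46 by batch) lay below every mock cell of their own batch. Of these 47 cells, 40 were also below every mock cell of their batch for the S phase list. Among all LPS-treated cells, 35.2, 86.7 and 45.7% by batch lay that low for the S phase list. In batch 8_8, where most LPS-treated cells did, the overlap of both lists says little. The kept counts of the 47 cells had a median of 345013, against 362911.5 in the other LPS-treated cells. By batch this median was higher in the low cells in scRNA (325569 against 320734) and 8_8 (287836 against 264432.5). It was lower in batch 9_1 (575701 against 655531). Their median Acod1 level was 6180 against 4310 CPM, higher in batches scRNA and 9_1 but lower in batch 8_8 (2560 against 4170 CPM). Their median share of counts in interferon-stimulated genes was 0.349%, against 0.234%. By batch this median was higher in the low cells in all 3 batches (0.385 against 0.229%, 0.126 against 0.0862% and 0.35 against 0.292%). Their median chemokine share was 1.28%, against 1.35%, higher in batch scRNA (1.27 against 1.03%) and lower in batches 8_8 (0.682 against 1.36%) and 9_1 (1.77 against 2%). They had a median of 7655 genes detected, against 8196.5. By batch the medians were 7456.5 against 7735, 7174 against 7005 and 8743 against 8916, so that batch 8_8 went the other way. These cells were picked out after the data had been seen, and the differences were not tested. In the G1 list, Mdm2 was the only 1 of 15 tested genes called (1.02 ± 0.14, higher), a share of 6.67%. Cdk4 had a log2 fold change of -0.29 ± 0.11.

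Beyond the lists, the genes with the largest falls were of varied function. After the 5 with the largest falls, ranks 6 to 20 of the genes called lower had log2 fold changes between -3.93 and -2.70. Klc4, a kinesin light chain gene, had 56.3, 54.3 and 57.9 CPM in mock and 5.32, 4.36 and 5.94 CPM in LPS-treated sums (-3.29 ± 0.29, adjusted p = 0.0058), nearly the same in each batch. Id2, an inhibitor of basic helix-loop-helix factors, had 55.8, 67.5 and 65.2 against 2.03, 16 and 2.68 CPM (-3.73 ± 0.62, adjusted p = 0.0243). Cpt1a, the gate to mitochondrial fatty acid oxidation, had 49.7, 66.3 and 34.7 against 9.05, 5.33 and 3.54 CPM (-2.96 ± 0.36, adjusted p = 0.0112). None of these 3 genes had overlapping groups. Tlr13, the endosomal receptor for bacterial ribosomal RNA, fell by 3.07 ± 0.43 on the log2 scale, the Ras GTPase-activating protein gene Rasa3 by 3.08 ± 0.41 and the signalling adaptor gene Eps8 by 2.70 ± 0.28. Pald1, Susd3, Emp1, Eepd1, Asb10, Kbtbd11, Snx29, C130050O18Rik and 2900026A02Rik complete these ranks. Among called genes, those that lost most mean CPM were Gpnmb, Laptm5, Amy1 (-1.08 ± 0.15), Erp29 (-1.30 ± 0.17) and Lgmn. Ranks 6 to 20 of the genes called higher ran from 5.23 (Il15) to 4.02 (Maff) and held, beside genes described above, only Nudt17 (4.08 ± 0.65).

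The promoters of genes called higher held more matches to 3 of 4 motifs than those of all genes tested. RefSeq windows from 250 bases before to 50 bases after a start (GRCm38.p6) were given for 7836 of 10370 genes tested. They were searched on both strands for the NF-kB kappa B consensus, the AP-1 motif TGANTCA, the CRE motif TGACGTCA, whose letters do not contain the AP-1 motif, and the ISRE motif, GAAA and a second GAAA after any 2 bases. The kappa B consensus was found in 15.5% of genes called higher, 6.19% of those called lower and 6% of all tested. The ISRE motif was found in 10.1, 1.03 and 3.74%, and AP-1 in 9.3, 8.25 and 5.6%. CRE matches were found in 3.88, 2.06 and 3.88%. Genes called higher had 1.37 windows each and all tested genes 1.27. Per window the kappa B share was 13.6% among genes called higher and 5.05% among all. A match is a run of letters and does not show that a factor binds there.

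**Figure D4:**
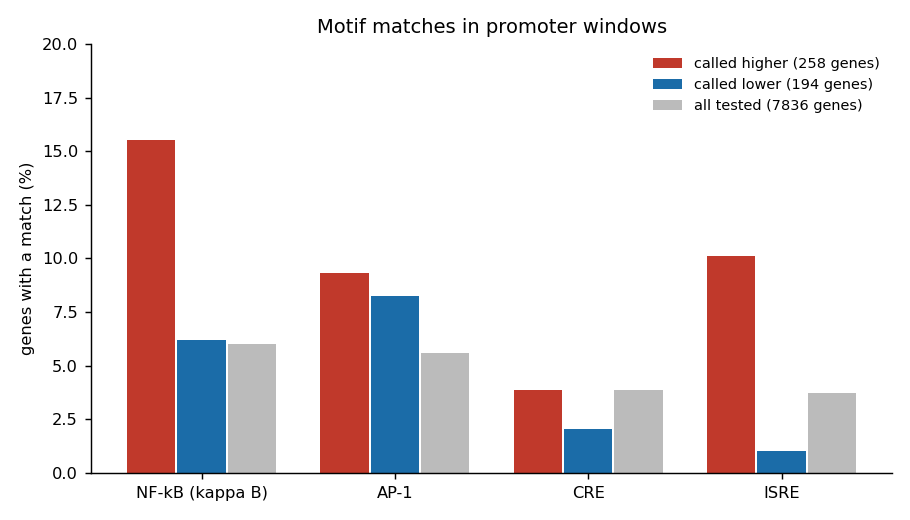
Percentage of genes with at least 1 match to each of 4 motifs in their promoter windows, for genes called higher, genes called lower and all genes tested. The bars for NF-kB and ISRE are higher for genes called higher (15.5 and 10.1%) than for all genes tested (6 and 3.74%).

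For 4 of the genes described above and for Isg15, the stretch around a match is shown, 5′ to 3′ on the strand of the gene. Each was called higher and has its match within 100 bases of an annotated start. They are examples, since other genes called higher, among them Ccl9, Ebi3, Gch1, Sdc4 and Tnfaip3, also have a kappa B match that close. Capitals mark the matched motif, which is kappa B in the first 4 and ISRE in the last. The Nfkb2 match begins 39 bases before the start (chr19:46304673-46304732, plus strand), the Tnip1 match 57 bases before it (chr11:54962963-54963022, minus strand) and the Sod2 match 83 bases before it (chr17:13007731-13007790, plus strand). The Casp4 match shown begins 92 bases before the nearer of 2 starts (chr9:5308732-5308791, plus strand) and overlaps a match at 93 bases. The Isg15 match begins 72 bases before the start (chr4:156200856-156200915, minus strand) and is 1 of 3 overlapping ISRE matches there. Rasa3 and Lgmn, which fell, also had a kappa B match.
Nfkb2: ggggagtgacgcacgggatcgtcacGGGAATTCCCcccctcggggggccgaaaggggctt
Tnip1: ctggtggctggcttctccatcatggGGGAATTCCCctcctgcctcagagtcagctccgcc
Sod2: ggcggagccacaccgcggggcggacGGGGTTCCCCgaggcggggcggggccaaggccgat
Casp4: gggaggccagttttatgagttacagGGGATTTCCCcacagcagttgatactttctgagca
Isg15: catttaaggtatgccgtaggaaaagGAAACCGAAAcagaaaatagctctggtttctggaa

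The response was compared with that in Live-seq libraries of the same line (4 batches, 8 sums). Of the genes called higher in whole cells, 87.5% had a fold change above 0 in Live-seq, against 38.9% of all genes tested. Of those called lower, 87.1% had one below 0, against 61.1% of all genes tested. The test of the difference between both responses called none of 10370 genes (0%) at an adjusted p below 0.05 (lowest adjusted p 0.779), with 4.38% at an unadjusted p below 0.05, and DESeq2 called 59 by the same model. A gene that misses this test is not shown to respond alike in both techniques.

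**Figure D5:**
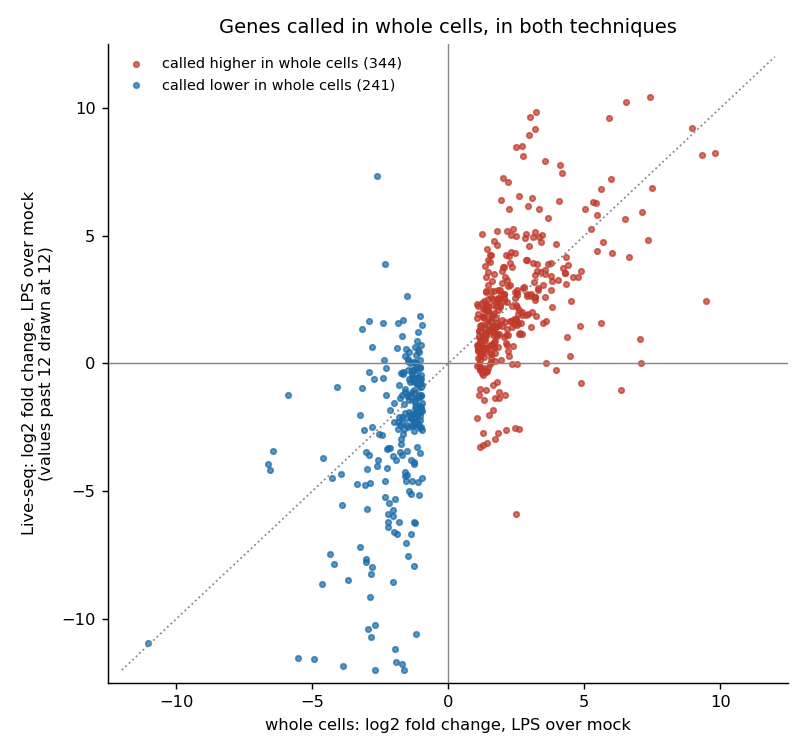
Log2 fold change of LPS-treated over mock in Live-seq (vertical) against whole cells (horizontal) for the genes called higher (red) and lower (blue) in whole cells. Most points lie at the upper right and lower left, with a wide vertical spread, and values past 12 are drawn at 12.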

How the data were processed

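The data were raw counts per gene for 1012 single-cell libraries, deposited by the authors in 1 table without normalization. Per the methods of the study, read 1 was aligned to GRCm38 with STAR 2.6.1c, and uniquely mapped reads were counted with HTSeq regardless of strand on Ensembl 87 plus EGFP and mCherry. Overlapping and antisense genes can therefore not be told apart. Reads carry no molecular identifiers. Of the table's columns, 316 were not used here.

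As in the study, 20 negative-control genes were left out, and so were 91 genes of ribosomal proteins. Both sets together held a median of 24.7% of mock and 22.1% of LPS-treated counts per cell. Counts of 149 LPS-treated and 157 mock cells (306) were summed per batch and treatment. The reported comparison called 585 genes, 344 higher and 241 lower; 258 and 194 of these had promoter windows. Live-seq libraries numbered 142 (39 LPS-treated, 103 mock). Genes needed 2 counts in 15% of the cells of either treatment and filterByExpr (minimum count 2, proportion 0.05). The edgeR quasi-likelihood test (edgeR 4.0.16 in R 4.3.3, TMM, prior count 0.125, Benjamini-Hochberg adjustment) used batch as a block. The s.e. is the log2 fold change over the root of F, with n = 3 sums a side. Batch pairs the sums by label, and deviations of paired sums correlated across genes at 0.469, 0.265 and 0.374. The labels name no separate cultures, so p-values measure the spread between batch sums. The test was tested on simulated data. Sorted singlets were taken as single cells and no doublet caller was run. Gene positions are from GENCODE vM21. Alternatives included DESeq2 1.42.0 and limma 3.58.1 (log2 of mean CPM per cell), and figures were drawn with matplotlib 3.10.9.

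Named genes were the 4 marker genes, ranks 6 to 20 in each direction with at least 10 CPM, the 5 largest gains and losses of CPM, and from each list up to 4 called members and 2 not called. Other list members and Nos2, EGFP and Cxcl10 were named after their values were seen. Members and the 29 gene lists (696 genes, 581 tested) were chosen with earlier results of these data known.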

Additional observations from a re-analysis of the deposited data

How the results depend on the processing

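As shares of the 10370 genes tested, 3.32% were called higher and 2.32% lower as reported. DESeq2 called 5.53 and 4.95%, the newer edgeR 4 fit 5.1 and 4.6%, and a fit with all 12 scRNA-seq sums 1.73 and 0.771%. Without the replicate block, that is without the pairing of sums by batch, 0.723 and 0.299% were called. Leaving out 1 batch at a time gave 0.733 to 5.51% called higher and 0.174 to 4.91% called lower. With each cell at equal weight, limma called 3.77% higher and 4.95% lower, so that 43.3% of called genes were higher in place of 58.8%, and the median over all genes was -0.15 on the log2 scale. DESeq2 called 59 genes for the difference between whole cells and Live-seq, where edgeR called 0. The remaining alternatives (DESeq2 size factors, no filter, left-out genes kept, cells thinned and, chosen after the data had been seen, the 4 mock cells left out) stayed within 1.5 times the reported shares. The cause of these differences was not tested.

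Of 97 called genes named by rule, 20 were called in all 13 alternatives (Slfn2, Klc4, Eps8, Rasa3, 2900026A02Rik, Ikbke, Nfkbia, Ccl9, Ebi3, Slc7a11, Sod2, Slc2a6, Fcgr2b, Cd40, Sdc4, Icam1, Gpr84, Bcl2a1d, Cdt1 and Ppp1r15a). The other 77 lost the call in at least 1, most often without batch 9_1 (62 genes) or without the block (56), and none reversed. Of 54 such genes that were not called, 14 were called in at least 1 alternative. The median of 4 lists near 0 changed sign in at least 1 alternative (oxidative stress defence, SNAREs, macrophage identity and V-ATPase subunits). With 3 sums a side, 2 residual degrees of freedom remain, and batch 8_8 holds the fewest cells.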
